A study of Danio rerio with 4 samples.

Results

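The genes described here encode tenascin C, fibronectin, hyaluronan synthase, hyaluronan link proteins, the stromal receptor endosialin and the zebrafish matrix protein calymmin, 9 of the 32434 genes in the count tables. Both TNC genes, cd248b and cmn were selected on their level in regenerating over uninjured fins of these same libraries, and are given by Ensembl ID. The others were taken by name with results of these libraries known. The names fn1a and fn1b matched no symbol with a paralog letter, only 2 gene IDs both called FN1, and hapln1b matched 1 ID called HAPLN1. A second HAPLN1 ID (ENSDARG00000102395) had no row in the tables used here. All 9 genes passed the filter on low counts. Since the regenerating-to-uninjured difference chose them, their values in that comparison are given as a description and without a test.

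The early matrix of a wound or a growing bud differs from that of resting connective tissue. Fibronectin is a large secreted glycoprotein that cells assemble into fibrils through integrin receptors. Tenascin C is a many-armed glycoprotein of embryos, wounds and healing tissue that modulates how cells attach to fibronectin. Hyaluronan is a sugar polymer made at the cell surface by hyaluronan synthases, and link proteins tie it to proteoglycans such as versican and aggrecan. In the fin of zebrafish (Danio rerio), amputation is followed by growth of a blastema, the proliferating mesenchyme that lies beneath the wound epidermis.

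RNA sequencing was done on whole fins of wild type fish of strain EK. The regenerating group held 2 pools of 10 fins taken 4 days after amputation with razor blades, and the uninjured group held 2 pools of 10 fins that were not amputated. No age and no fin type is given in the sources used here, nor how much stump tissue the regenerating samples contained or whether the pools came from different fish. P-values therefore measure the spread between these pools, which may be technical. In bulk tissue, more cells of a type and more RNA per cell cannot be told apart.

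The libraries held 34290386 to 48247042 counts. Levels are given as CPM (counts scaled to a library total of 1000000) after scaling by trimmed mean of M values (TMM), which sets a floor of 3 counts at 0.0562 to 0.0881 CPM per library. Of 25594 genes tested across the transcriptome, 29.5% were higher and 30.0% lower in regenerating fins (edgeR's quasi-likelihood test with a threshold of 0.05 after Benjamini-Hochberg adjustment). Of the genes called, 49.6% were higher, and 61.8% were when libraries were scaled by total counts alone, and the median log2 fold change moved by 0.21. Fin epidermis was present in both groups. Epidermal markers (the basal epidermis list) summed to 33630 and 30159 CPM in regenerating and 100875 and 79339 CPM in uninjured pools. Most of each sum came from krt5, named after its values were seen. It had 24334 and 20881 CPM in regenerating and 69109 and 54612 CPM in uninjured pools, and did not pass (edgeR, adjusted p = 0.108). Blastema and fin fibroblast markers summed to 5689 and 5117 CPM in regenerating and 174 and 158 CPM in uninjured pools. Without and1 and and2, left out after their values were seen, they summed to 667 and 633 CPM in regenerating and 148 and 132 CPM in uninjured pools.

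The 9 genes together took 0.497% and 0.516% of all counts in the regenerating libraries, against 0.0591% and 0.0723% in the uninjured libraries. All 9 passed the threshold upwards, where 29.5% of tested genes did. For all 9, the lower regenerating pool exceeded the higher uninjured pool, which held for 40.3% of tested genes. Nothing is read from these counts, because the same comparison chose the genes. The log2 fold changes, regenerating over uninjured, ran from 1.03 to 6.73 with a median of 2.91, beside a median of -0.02 over all genes tested.

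**Figure D1:**
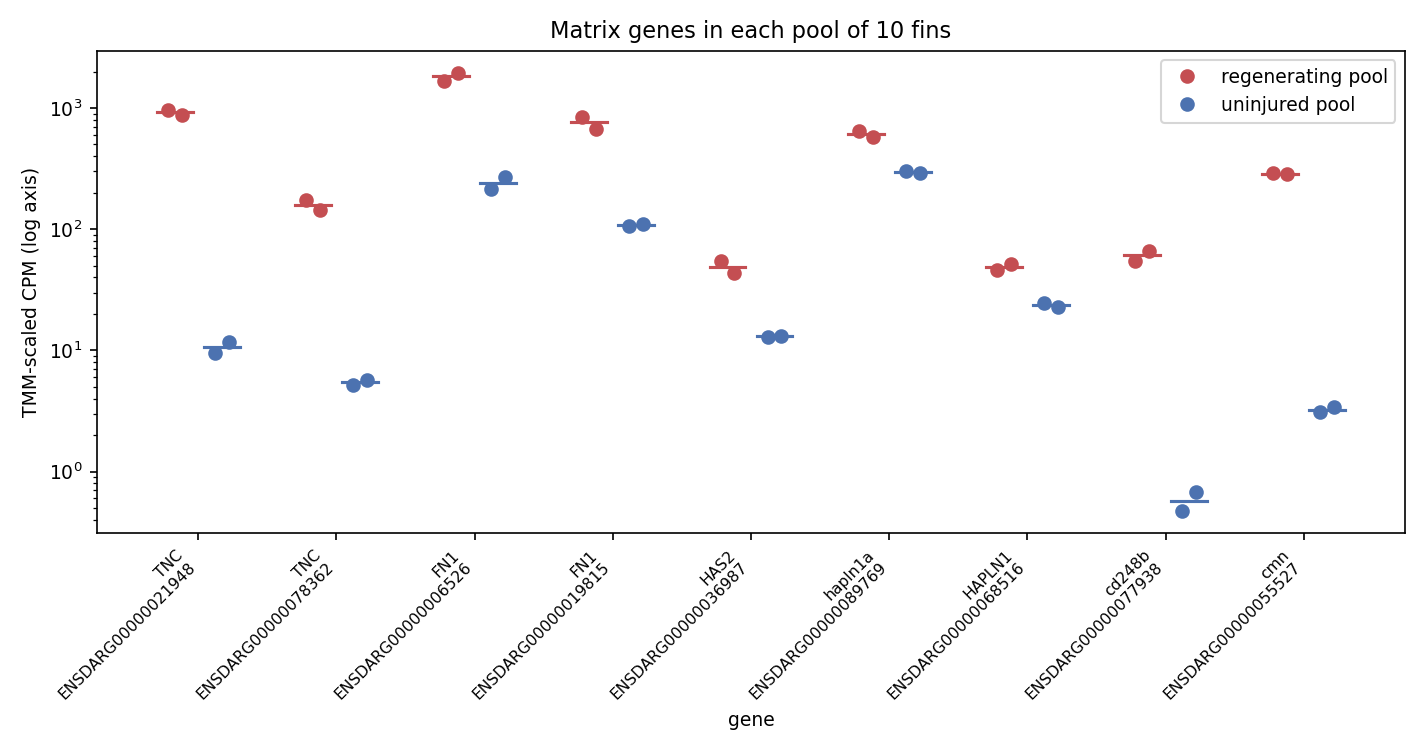
TMM-scaled CPM of the 9 matrix genes on a log axis, with a dot for each pool of 10 fins and a line at the mean of the 2 pools; regenerating pools are red and uninjured pools blue. The regenerating pools lie above the uninjured pools for every gene shown, as they do for 40.3% of tested genes. The gap is widest for cd248b, cmn and TNC (ENSDARG00000021948) and narrowest for hapln1a and HAPLN1.

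Transcripts of both tenascin C gene IDs were far higher in regenerating than in uninjured fins. The gene TNC (ENSDARG00000021948) had 966 and 878 CPM in the regenerating pools, against 9.58 and 11.7 CPM in the uninjured pools. The lower regenerating pool was 74.8 times the higher uninjured pool. The fitted difference was 86.5-fold, a log2 fold change of 6.44 ± 0.22 (SE, n = 2 pools each). It was the 37th largest among tested genes, with 0.141% of them above it.

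The second gene, TNC (ENSDARG00000078362), had 175 and 143 CPM in regenerating pools, against 5.14 and 5.72 CPM in uninjured pools. Its regenerating pools were also far above its uninjured pools, but by less, at 29.2-fold or a log2 fold change of 4.87 ± 0.17 (SE). The uninjured values rested on 196 and 195 counts, and those of the other TNC gene on 365 and 400 counts.

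The ratio of ENSDARG00000021948 to ENSDARG00000078362 within a library was 5.52 and 6.15 in regenerating pools, against 1.86 and 2.05 in uninjured pools. Transcript lengths were not used here, so a ratio does not say which gene is the more abundant. Length cancels when the ratio is compared between groups only if each gene's transcripts keep the same length in both, which was not tested. On the log2 scale the ratio averaged 2.54 ± 0.11 in regenerating and 0.97 ± 0.10 in uninjured pools (SD, n = 2 pools each). The ratio is a description with no test and nothing is read from it, as it follows from the values that chose the genes.

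Other tenascin genes had smaller differences, and nothing is read from that order, as both TNC genes were selected on this difference. The tenascin-X gene tnxba rose by 2.34 ± 0.16 on the log2 scale (edgeR quasi-likelihood, Benjamini-Hochberg adjusted p = 1.53e-05), with 14.5 ± 1.96 CPM in regenerating and 2.86 ± 0.148 CPM in uninjured fins (SD, n = 2 pools each). The gene tnn, whose mammalian relative tenascin-W is found in bone-forming tissue, had 142 ± 19.0 CPM in regenerating and 60.9 ± 21.8 CPM in uninjured fins. The log2 fold change of 1.22 ± 0.23 passed (adjusted p = 0.00209), and it ranged from 0.90 to 1.67 when a library was left out. TNR, the tenascin of nerve tissue in mammals, fell by 0.80 ± 0.15 (adjusted p = 0.00235). Of 6 tenascin names sought in this list, 3 matched no symbol and were not analysed here.

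Both fibronectin genes were higher in regenerating fins. Their folds were smaller than those of the tenascin C genes, which were selected on this difference, so nothing is read from that order. The gene FN1 (ENSDARG00000006526) had 1681 and 1956 CPM in regenerating pools, against 214 and 271 CPM in uninjured pools. The gene FN1 (ENSDARG00000019815) had 850.2 and 675 CPM in regenerating pools, against 105 and 111 CPM in uninjured pools. For both genes the regenerating pools lay above the uninjured pools, which held for 40.3% of tested genes. The differences were 7.51-fold and 7.05-fold, log2 fold changes of 2.91 ± 0.23 and 2.82 ± 0.18 (SE), close to each other within these errors.

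Between the regenerating pools the 2 fibronectin genes went in opposite directions. ENSDARG00000006526 was 1.16 times as high in replicate 2 as in replicate 1, and ENSDARG00000019815 was 1.26 times as high in replicate 1 as in replicate 2. The log2 ratio of the first to the second accordingly spread widely, averaging 1.26 ± 0.39 in regenerating and 1.15 ± 0.19 in uninjured pools (SD, n = 2 pools each). The difference of 0.11 was smaller than either spread, and it changed sign without regenerating replicate 2 (-0.17) or without uninjured replicate 1 (-0.03).

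**Figure D2:**
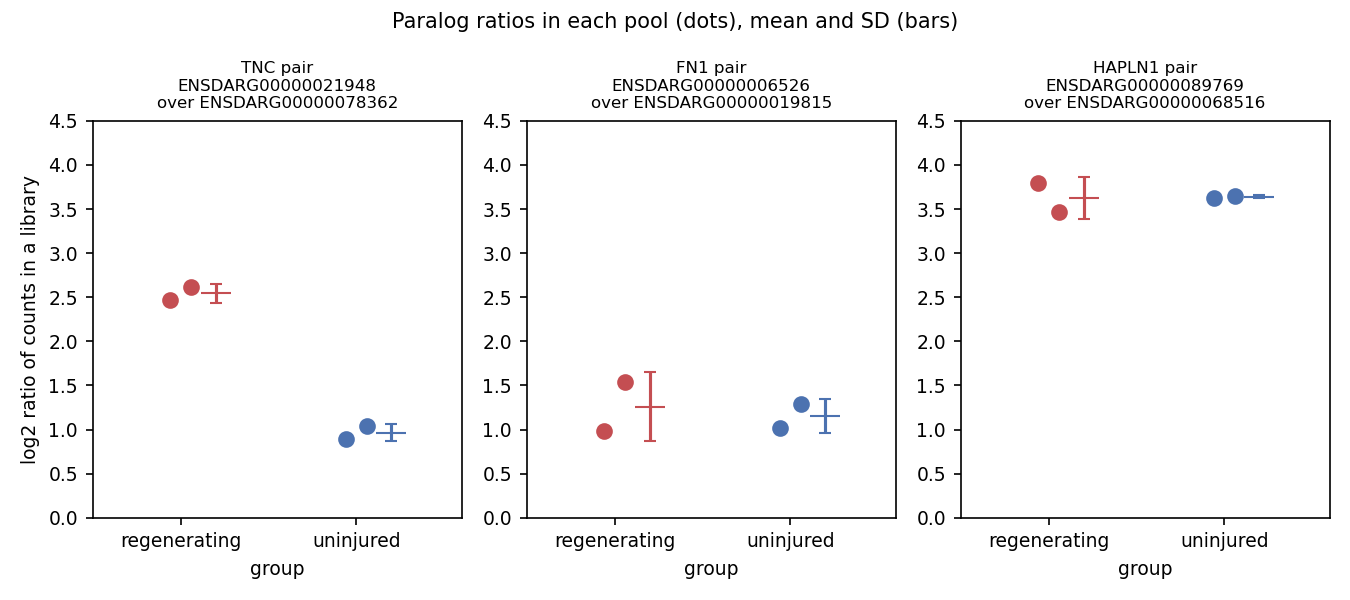
Log2 ratio of the counts of paired genes in each pool (dots, regenerating left and uninjured right), with the mean and SD of the 2 pools of a group (bars). The TNC ratio averages 2.54 in regenerating and 0.97 in uninjured pools, while the FN1 and HAPLN1 ratios overlap between the groups.

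Receptors that bind fibronectin or tenascin were partly higher. Of 17 tested integrin and syndecan genes, 9 (52.9%) rose and 3 (17.6%) fell while 5 missed the threshold, where 29.5% of all tested genes rose and 30.0% fell, and the median log2 fold change was 0.41 beside -0.02 over all genes. ITGA5, whose product pairs with the beta 1 chain as the classical fibronectin receptor, rose by 2.27 ± 0.14 (edgeR, Benjamini-Hochberg adjusted p = 8.62e-06), with 68.0 ± 3.95 CPM in regenerating and 14.05 ± 1.77 CPM in uninjured fins (SD, n = 2 pools each). ITGA8, the alpha chain of another receptor for fibronectin, tenascin and nephronectin, rose by 2.52 ± 0.16 (adjusted p = 1.05e-05). ITGA9, the alpha chain of a tenascin C receptor in mammals, rose by 1.92 ± 0.15 (adjusted p = 2.49e-05).

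Other integrin chains of the list differed among themselves. Of 3 gene IDs named ITGB1, one (ENSDARG00000071863) rose by 2.10 ± 0.17 (edgeR, Benjamini-Hochberg adjusted p = 2.57e-05). The others had log2 fold changes of 0.26 ± 0.13 (ENSDARG00000022689, adjusted p = 0.112) and -0.11 ± 0.12 (ENSDARG00000053232, adjusted p = 0.457). Under total count scaling ENSDARG00000022689 passed and the value of ENSDARG00000053232 turned to 0.10. ITGAV, the alpha chain of RGD-binding receptors, was expressed at 473 ± 4.24 CPM in regenerating and 377 ± 9.07 CPM in uninjured fins. The log2 fold change of 0.33 ± 0.15 did not pass (adjusted p = 0.0930), but it did with DESeq2 (adjusted p = 0.0299) and with total count scaling (adjusted p = 0.0176). The 3 genes that fell were ITGA2, ITGB3 (ENSDARG00000056767) and sdc4, the last 2 picked out after their values were seen. Their log2 fold changes were -1.83, -1.25 and -0.98. The other ITGB3 ID (ENSDARG00000045070), also named after its value was seen, rose by 1.62 ± 0.28 (edgeR, adjusted p = 0.00131).

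HAS2, the hyaluronan synthase gene among the 9, had 54.1 and 43.7 CPM in regenerating pools, against 12.99 and 13.2 CPM in uninjured pools. Each regenerating pool was thus more than 3 times each uninjured pool. The difference was 3.73-fold, a log2 fold change of 1.90 ± 0.14 (SE), and 5.40% of tested genes had a larger one.

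The other hyaluronan synthase genes did not pass the test. HAS1 had 302 and 166 counts in regenerating and 180 and 144 counts in uninjured libraries, a log2 fold change of 0.03 ± 0.29 (edgeR, Benjamini-Hochberg adjusted p = 0.939). Its regenerating pools differed by more than its groups, and its fold change turned to -0.52 without regenerating replicate 1. HAS3 was near the floor, with 13 and 13 counts in regenerating and 7 and 4 counts in uninjured libraries and a log2 fold change of 0.71 ± 0.46 (adjusted p = 0.216).

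Genes that supply the sugars of hyaluronan were higher in part. Of 11 tested genes of this list, which includes HAS1 and HAS3, 5 (45.5%) rose and 1 (9.09%) fell while 5 missed the threshold, beside 29.5% and 30.0% of all tested genes, and the median log2 fold change was 0.49. Without uninjured replicate 1, 2 were lower. UGDH, which makes UDP-glucuronic acid, rose by 2.08 ± 0.15 (edgeR, Benjamini-Hochberg adjusted p = 1.96e-05), with 48.0 ± 2.57 CPM in regenerating and 11.3 ± 2.05 CPM in uninjured fins (SD, n = 2 pools each). PGM3 and GFPT1, enzymes on the way to UDP-N-acetylglucosamine, rose by 2.41 ± 0.19 and 1.52 ± 0.13 (adjusted p = 2.64e-05 and 3.06e-05). GNPNAT1, the acetyltransferase of the same route, fell by 0.62 ± 0.13 (adjusted p = 0.00335), a call lost with total count scaling (adjusted p = 0.0652).

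The link protein genes were already expressed in uninjured fins and differed least of the 9. That order is a description, as some of the 9 were selected on this difference. The gene hapln1a (ENSDARG00000089769) had 640.5 and 571 CPM in regenerating pools, against 304 and 288 CPM in uninjured pools. The gene HAPLN1 (ENSDARG00000068516) had 46.1 and 51.9 CPM in regenerating pools, against 24.7 and 23.0 CPM in uninjured pools. The lower regenerating pool was 1.88 and 1.87 times the higher uninjured pool.

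The 2 link protein genes had nearly the same difference between groups, 2.05-fold and 2.06-fold, or log2 fold changes of 1.03 ± 0.16 and 1.04 ± 0.13 (SE). In the ranking of all genes tested, 14.7% and 14.5% of tested genes had a larger one. Their log2 ratio averaged 3.63 ± 0.24 in regenerating and 3.64 ± 0.02 in uninjured pools (SD, n = 2 pools each), a difference of -0.01 that was smaller than the spread between regenerating pools and changed sign without regenerating replicate 2 (0.16) or without uninjured replicate 2 (0.0032). With total count scaling both fold changes were larger, at 1.24 for hapln1a and 1.25 for HAPLN1.

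**Figure D3:**
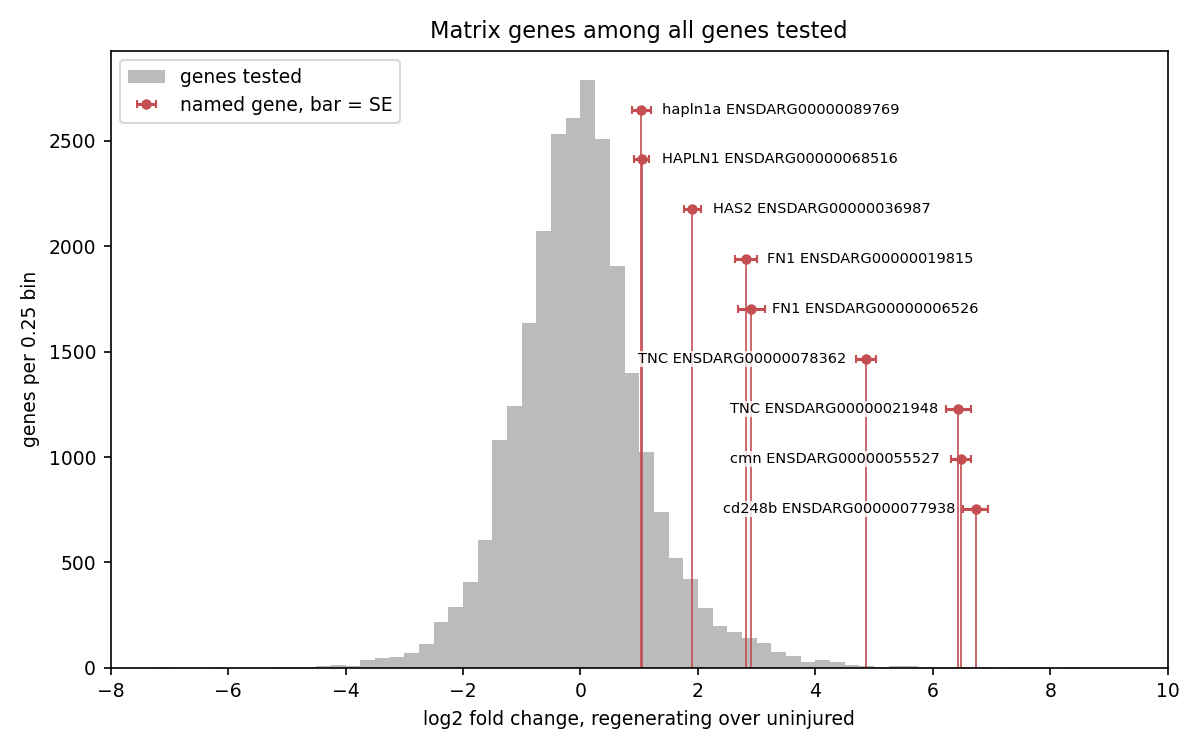
Number of tested genes per 0.25 bin of log2 fold change, regenerating over uninjured (grey bars), with the 9 matrix genes in red at their log2 fold change (horizontal bars, SE) and their height on the page only separating the labels. The link protein genes lie at 1.03 and 1.04 near the bulk of all genes, and cd248b, cmn and TNC (ENSDARG00000021948) at 6.44 to 6.73 in its far tail.

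Hyaluronan-binding proteoglycans and their partners were partly higher. Of 9 tested genes, 5 (55.6%) rose and 2 (22.2%) fell while 2 missed the threshold, beside 29.5% and 30.0% of all tested genes. The median log2 fold change was 1.70. The rise of HAPLN2 rested on 17 and 15 counts in regenerating and 1 and 2 counts in uninjured libraries. That of acana rested on 44 and 32 against 4 and 5 counts. Both, named after their values were seen, passed the filter only through their regenerating libraries, and nothing is read from their direction. The share that rose and the median of this list include both genes, so nothing is read from either. The number lower was 1 with total count scaling, without regenerating replicate 1 and with the filter of 10 CPM in 2 libraries, under which 3 were higher. HAPLN3, a further link protein gene, rose by 2.36 ± 0.16 (edgeR, Benjamini-Hochberg adjusted p = 1.26e-05), with 19.9 ± 0.313 CPM in regenerating and 3.88 ± 0.660 CPM in uninjured fins (SD, n = 2 pools each). The versican gene vcanb, whose product is tied to hyaluronan by link proteins and binds tenascin C in mammals, rose by 1.70 ± 0.14 (adjusted p = 2.69e-05), with 146 ± 16.02 CPM in regenerating and 44.97 ± 1.82 CPM in uninjured fins. TNFAIP6, which in mammals transfers inter-alpha-trypsin inhibitor heavy chains to hyaluronan, rose by 2.26 ± 0.19 (adjusted p = 3.35e-05). The 2 genes that fell were the heavy chain gene itih6 at -1.44 ± 0.23, which stood at 0.727 CPM in regenerating and 1.98 CPM in uninjured fins, and the neurocan gene NCAN at -0.48 ± 0.13, named after its value was seen. Of 18 names sought in this list, 6 matched no symbol and were not analysed here, among them the versican name vcana.

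Of 14 tested receptors and enzymes that bind or break down hyaluronan, 7 (50.0%) rose and 4 (28.6%) fell while 3 missed the threshold, beside 29.5% and 30.0% of all tested genes, so that the share that fell was near that of all genes, and the median log2 fold change was 0.24. The surface receptor gene cd44a fell by 1.79 ± 0.13 (edgeR, Benjamini-Hochberg adjusted p = 1.94e-05), with 79.9 ± 1.48 CPM in regenerating and 276 ± 3.23 CPM in uninjured fins (SD, n = 2 pools each). The receptor gene hmmr, whose product also acts at the mitotic spindle, rose by 3.75 ± 0.17 (adjusted p = 2.56e-06). HYAL4 and HYAL2 (ENSDARG00000062997) rose by 4.78 ± 0.19 and 1.80 ± 0.12 (adjusted p = 2.03e-06 and 1.16e-05). The other HYAL2 ID (ENSDARG00000059931), named after its value was seen, did not pass, at -0.11 ± 0.12 (edgeR, adjusted p = 0.445). HYAL2 encodes a membrane-anchored hyaluronidase, and the human relative of HYAL4 acts on chondroitin sulfate. HYAL4 rested on 23 and 17 counts in uninjured libraries. The other genes that fell, picked out after their values were seen, were CEMIP, lyve1a and hyal6, with log2 fold changes of -0.95, -0.89 and -0.84.

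The gene cd248b (ENSDARG00000077938) encodes endosialin, a membrane glycoprotein with a lectin-like domain found on stromal fibroblasts and pericytes in mammals, where it binds fibronectin and collagen. It had 54.9 and 66.6 CPM in regenerating pools, against 0.472 and 0.675 CPM in uninjured pools. The uninjured values rested on 18 and 23 counts, the fewest of the 9 genes. The difference was 106-fold, a log2 fold change of 6.73 ± 0.21 (SE), the largest of the 9 genes. It ranged from 6.49 to 7.03 when a library was left out.

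Of 13 tested mural cell and pericyte markers, 2 (15.4%) were higher, 5 (38.5%) lower and 6 did not pass, beside 29.5% and 30.0% of all tested genes. They summed to 646 and 591 CPM in regenerating pools, against 901 and 830 CPM in uninjured pools. Most of that difference came from NOTCH3, named after its values were seen. It had 175 and 164 CPM in regenerating pools, against 370 and 354 CPM in uninjured pools. None of the 13 was at 0 in every library, and the pericyte marker pdgfrb matched no symbol and was not analysed here. Endothelial markers were higher for 7 of 8 (87.5%) and lower for none, with sums of 266 and 213 CPM in regenerating pools, against 75.7 and 81.6 CPM in uninjured pools. The part of these cells in the cd248b values was not tested.

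Of the receptors and partners listed beside endosialin, all 4 that were tested rose, where 29.5% of all tested genes did. Of 10 names sought, 6 matched no symbol and were not analysed here, among them the paralog name cd248a. PDGFRA, a receptor of fibroblasts and mesenchyme, rose by 2.44 ± 0.16 (edgeR, Benjamini-Hochberg adjusted p = 1.09e-05), with 33.7 ± 0.937 CPM in regenerating and 6.21 ± 1.18 CPM in uninjured fins (SD, n = 2 pools each). The multimerin gene mmrn2b, whose mammalian product binds endosialin, rose by 1.67 ± 0.16 (adjusted p = 5.41e-05). Its paralog mmrn2a and the thrombomodulin gene thbd had log2 fold changes of 0.43 ± 0.14 and 0.56 ± 0.19 (adjusted p = 0.0277 and 0.0328). Both calls were lost without regenerating replicate 1 (adjusted p = 0.219 and 0.178) and without uninjured replicate 1 (adjusted p = 0.0674 and 0.124), and that of thbd also without regenerating replicate 2 (adjusted p = 0.0587) and with DESeq2 (adjusted p = 0.0909).

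The calymmin gene cmn (ENSDARG00000055527), known for the sheath around the notochord in zebrafish embryos, had 289 and 285 CPM in regenerating pools, against 3.07 and 3.38 CPM in uninjured pools. Its pools agreed most closely of the 9 genes in regenerating fins, the higher being 1.02 times the lower. The difference was 89.0-fold, a log2 fold change of 6.48 ± 0.17 (SE). The lower regenerating pool was 84.3 times the higher uninjured pool.

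Of 16 tested cartilage and notochord sheath markers, 7 (43.8%) were higher and 4 (25%) lower while 5 missed the threshold. The shares over all tested genes were 29.5% and 30.0%. Of those higher, acana, col8a1a and COL2A1 (ENSDARG00000069093) passed the filter only through their regenerating libraries, with at most 5 counts in an uninjured library. Nothing is read from the direction of these genes, named after their values were seen. The median log2 fold change of the 16 markers was 0.34. That median and the share that was higher include acana, col8a1a and this COL2A1 ID, so nothing is read from either. The list summed to 456 and 428 CPM in regenerating pools, against 218 and 182 CPM in uninjured pools. Most of that difference came from COL2A1 (ENSDARG00000011407), named after its values were seen. It had 272 and 263 CPM in regenerating pools, against 46.0 and 40.5 CPM in uninjured pools. The notochord homeobox gene noto was at 0 in all 4 libraries. TBXT (ENSDARG00000039806), a brachyury gene not assigned to a paralog here, had 16.4 and 18.4 CPM in regenerating pools, against 10.7 and 9.72 CPM in uninjured pools. It rose by 0.77 ± 0.14 (edgeR, Benjamini-Hochberg adjusted p = 0.00143). Both noto and TBXT were named after their values were seen, as were the 4 markers that fell. Those 4 were col9a3, snorc, SOX9 (ENSDARG00000003293) and SOX5, with log2 fold changes of -1.96, -0.81, -0.66 and -0.56. Osteoblast markers summed to 11167 and 9659 CPM in regenerating pools, against 331 and 398 CPM in uninjured pools, with 8 of 9 (88.9%) higher and 1 (11.1%) lower. Most of the regenerating sum came from 1 gene, COL10A1, and without it, left out after its values were seen, the other 8 markers summed to 462 and 438 CPM in regenerating and 134 and 151 CPM in uninjured pools. The part of these cells in the values of cmn and of the other matrix genes was not tested.

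**Figure D4:**
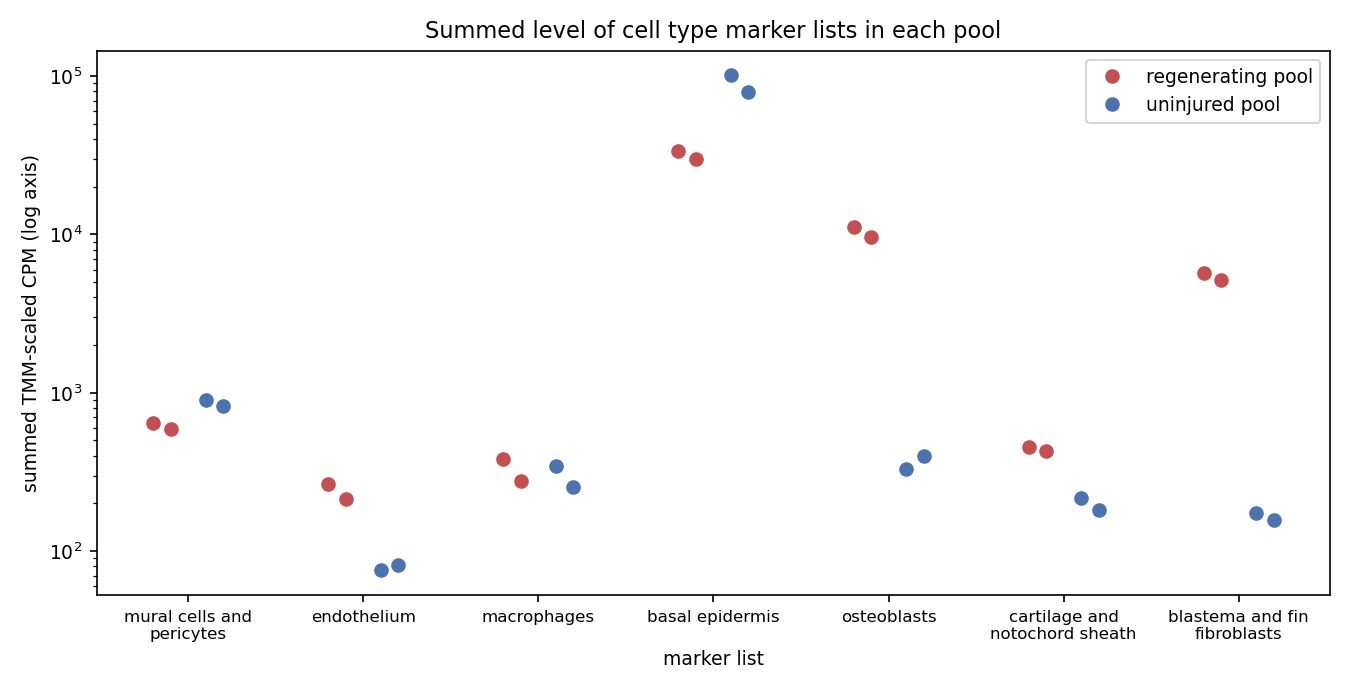
Summed TMM-scaled CPM of each cell type marker list on a log axis, with a dot for each pool; regenerating pools are red and uninjured pools blue. Osteoblast and blastema and fin fibroblast sums are higher in regenerating pools, basal epidermis and mural cell sums are lower, and macrophage sums overlap. COL10A1 makes up most of the osteoblast sum in regenerating pools, and and1 and and2 most of the blastema sum. NOTCH3 gives most of the mural cell difference, COL2A1 (ENSDARG00000011407) most of the cartilage difference, and krt5 most of each basal epidermis sum.

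Of 12 tested blastema and fin fibroblast markers, 10 (83.3%) were higher and 2 (16.7%) lower, beside 29.5% and 30.0% of all tested genes. Of 8 markers of the basal epidermis list, 1 (12.5%) was higher and 6 (75.0%) lower. Macrophage markers were higher for 6 of 14 (42.9%) and lower for 5 (35.7%), and summed to 379 and 275 CPM in regenerating pools, against 346 and 253 CPM in uninjured pools. The blastema list includes and1 and and2, known beforehand to be very high in these regenerating libraries, and its count is not independent evidence of a direction.

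Secreted matrix glycoproteins outside these families were mostly higher too. Of the 29 that were tested, 20 (69.0%) rose and 2 (6.90%) fell while 7 missed the threshold, beside 29.5% and 30.0% of all tested genes, and the median log2 fold change was 1.08. The nidogen gene NID2, a basement membrane linker, rose by 4.21 ± 0.15 (edgeR, Benjamini-Hochberg adjusted p = 1.67e-06), with 204 ± 9.68 CPM in regenerating and 11.0 ± 1.24 CPM in uninjured fins (SD, n = 2 pools each). The microfibril gene mfap2 rose by 4.05 ± 0.17 (adjusted p = 2.16e-06) and the elastic fibre gene emilin1b by 2.66 ± 0.14 (adjusted p = 3.97e-06). The matrilin gene MATN3 (ENSDARG00000069245), of cartilage matrix in mammals, had a log2 fold change of -3.11 ± 0.29. Its level was 0.193 CPM in regenerating and 1.69 CPM in uninjured fins, from 9 and 11 against 64 and 58 counts. MATN3 passed the filter through its uninjured libraries, and nothing is read from its direction. The other gene that fell was DPT, which encodes dermatopontin, at -1.30 ± 0.15, named after its value was seen.

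Over all 87 tested genes of these 7 pathway lists, without the 9 genes described first, 52 (59.8%) were higher, 13 (14.9%) lower and 22 did not pass. Among all tested genes the shares were 29.5% and 30.0%. Of the 52, HAPLN2 and acana passed the filter only through their regenerating libraries. Of the 13, MATN3 (ENSDARG00000069245) passed it through its uninjured libraries. The median log2 fold change of the 87 was 0.73, beside -0.02 over all genes. The 7 lists were chosen with earlier results of these data known. Their shares and medians are therefore not independent evidence of a direction.

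**Figure D5:**
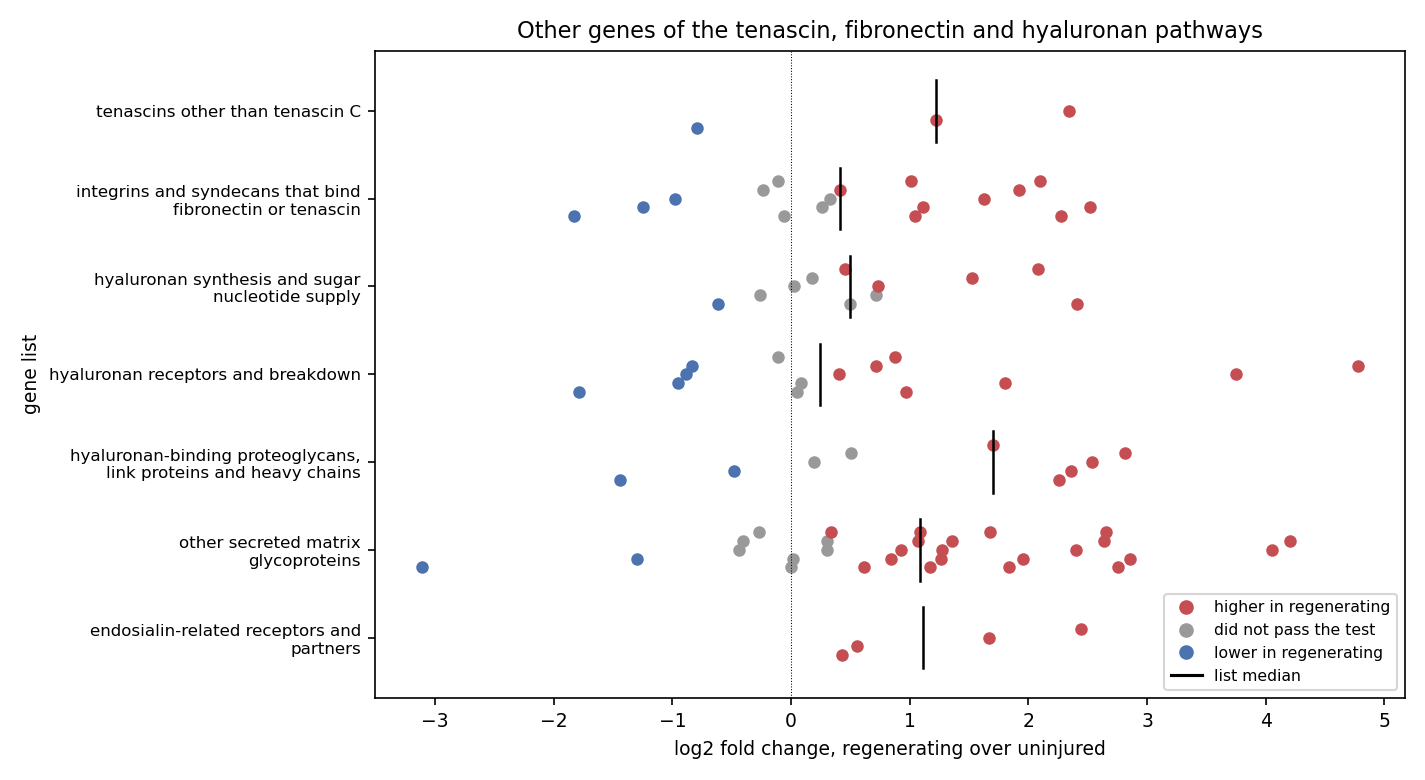
Log2 fold change, regenerating over uninjured, of each tested gene of the 7 pathway lists (dots), with the list median as a black line and colours for genes that were higher, lower or did not pass the test. HYAL4 at 4.78 and NID2 at 4.21 lie farthest right and MATN3 (ENSDARG00000069245) at -3.11 farthest left. Nothing is read from the direction of MATN3, which rests on few counts.

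Whether the gap between pools of a group entered the choice of genes is not known, so nothing is read from its size. The higher pool was a median of 1.16 times the lower for the 9 genes in regenerating fins and 1.0996 times in uninjured fins. For the 5455 tested genes with a mean level at or above that of the lowest of the 9, the medians were 1.09 and 1.11. The widest gaps were 1.26 for FN1 (ENSDARG00000019815) in regenerating and 1.43 for cd248b in uninjured fins.

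Genes with the most similar pattern over the 4 libraries were sought among 10311 other genes by distance on centred log2 CPM. For TNC (ENSDARG00000021948) they were FREM2, adam8a and lepb, at distances of 0.69, 0.73 and 0.82. For cd248b they were lepb, and1 and FREM2, at 0.73, 0.82 and 0.98, and for cmn FREM2, adam8a and SLC1A4, at 0.67, 0.77 and 0.82. TNC (ENSDARG00000078362) was nearest to SGMS2, ECRG4 and PCP4, at 0.18, 0.18 and 0.25. The nearest genes to FN1 (ENSDARG00000019815) were FRK, THBS3 (ENSDARG00000077641) and TTK, at 0.08, 0.08 and 0.09. HAS2 was nearest to RAD54B and hapln1a to GPAA1, both at 0.03, and HAPLN1 to KIF26B at 0.01. The 4 libraries fall into 2 groups, so a distance depends on the fold change between groups as well as on the pools, and it carries no test.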

How the data were processed

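RNA was sequenced from 2 regenerating and 2 uninjured pools of 10 fins as single-end Illumina libraries, per the labels' protocols. The authors deposited raw counts of reads per Ensembl gene, taken on TopHat's accepted alignments per the file headers. The submitters' processing notes name CASAVA, TopHat, edgeR and genome build Zv9; versions, counting program, annotation and strand mode are not given in the sources used. Reads of paralogs (both TNC, both FN1, hapln1a and HAPLN1, ITGB1, ITGB3) and of overlapping or antisense genes may therefore be misassigned.

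Gene symbols were looked up by Ensembl ID, which named 20769 genes, matched in any case, or in capitals without a paralog suffix; an ID without its letter was not assigned to a paralog. No sequences, coordinates or lengths were used. Genes were filtered with filterByExpr (minimum count 10, minimum total 15), scaled by TMM and tested with edgeR's quasi-likelihood test (glmQLFit, newer estimation, group as the only term), with Benjamini-Hochberg adjustment over all 25594 genes and a threshold of 0.05. Standard errors were the absolute log2 fold change divided by the square root of the F statistic of that test. The pipeline was tested on simulated data. The software was edgeR 4.0.16 and DESeq2 1.42.0 in R 4.3.3, with Python 3.11.15, pandas 2.3.3 and matplotlib 3.10.9.

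Alternatives were RLE and total count scaling, no filter, a filter of 10 CPM in 2 libraries, DESeq2, legacy estimation, a replicate block and leaving out each library. Replicate pools differed beyond counting noise (chi-square per degree of freedom of 15.9 and 32.9, at least 397 between groups). Genes named were the 9 genes, up to 3 called genes per pathway list in the direction with more calls and 1 in the other by adjusted p, and 8 fixed genes, besides those marked in the text; distances used 0.01 CPM added, a mean of at least 5 CPM and 3 neighbours per gene, of which a part is printed. The genes and the lists were chosen with earlier results of these data known. acana, acanb and MATN1 stand in a pathway and a marker list. Names that matched no symbol were also 1 of 19 for integrins and syndecans and 1 of 17 for hyaluronan receptors and breakdown. For the other secreted matrix glycoproteins they were 5 of 43.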

Additional observations from a re-analysis of the deposited data

How the results depend on the processing

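All 9 matrix genes had a log2 fold change above 0 under each of the 11 alternatives run. Nothing is read from this, because the same comparison in these libraries chose the genes. Of all tested genes, 29.5% were called higher in the main fit, and 8941 of 25594 were with total count scaling. The median log2 fold change of the 9 was 3.11 with total count scaling and 2.82 with the filter of 10 CPM, against 2.91 in the main fit. It was 2.78 to 3.12 when a library was left out. With the 10 CPM filter, 4383 genes were higher and 4502 lower, against 7553 and 7689, as fewer genes (12444) were tested. Pathway genes called higher numbered 43 to 56 and those called lower 10 to 14 over all alternatives. The difference of the TNC log2 ratio, 1.58, ran from 1.499 to 1.654 when a library was left out; that of FN1 ran from -0.17 to 0.38 and that of HAPLN1 from -0.18 to 0.16. HAS1 turned to -0.027 with a replicate block and ran from -0.52 to 0.43 when a library was left out, and ITGB1 (ENSDARG00000053232) turned to 0.10 with total count scaling; the cause was not tested. In the fits without a library, the lone pool is assumed to vary like the other group.

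The labels give both groups replicates 1 and 2 but no link between them, and the differences between replicates 1 and 2 correlated at -0.04 across genes between the groups. With the replicate block, 7473 genes were higher and 7623 lower, and 51 and 13 pathway genes. HAS3, HYAL4, MATN3, itih6, HAPLN2, acana, col8a1a, COL2A1 (ENSDARG00000069093) and the uninjured level of cd248b rest on few counts.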
